A study of Mus musculus with 48 samples.

Results

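The replication-dependent histone genes were the rows of the deposited count table whose symbol had the form H1f1 to H1f5, H2ac, H2bc, H3c or H4c followed by a number. There were 63 of them among 25528 genes: 5 of the H1 linker class, 17 of H2A, 17 of H2B, 12 of H3 and 12 of H4. In GRCm38 coordinates 53 lie on chromosome 13 and 10 on chromosome 3. All 63 passed the filter on low counts in both fits used here. Together they took between 1.34% and 4.83% of the counts of a library.

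Core histones H2A, H2B, H3 and H4 form the octamer that DNA wraps around, and H1 binds the DNA between octamers. Replication-dependent genes supply most of this protein during S phase, and their messenger RNA (mRNA) ends just past a short stem-loop, bound by the protein SLBP, in place of a poly(A) tail. Some of these genes also give polyadenylated transcripts that run past the stem-loop, a form known from cells that leave the cell cycle. The TruSeq V2 kit used for these libraries is one that enriches polyadenylated RNA, so the counts need not follow the tail-less form, and the share of each form was not tested.

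The cells were mouse Cas9-Hoxb8 cells, a progenitor line kept growing by the Hoxb8 protein and labelled as granulocyte-monocyte progenitors (GMP). Each of 16 groups had 3 libraries, 48 in all. The transformed groups were clones 4 and 6 (Trp53-KO) and clones 7 and 12 (E6l2-Trp53-KO), labelled as etoposide transformed, each a single clone, with RNA taken from cells given no drug beforehand. The other 12 groups were E6l2-Trp53-KO, Trp53-KO, E6l2-KO and wildtype cells, each in 3 conditions: etoposide for 48 h, high cell density (HCD, 4 M cells seeded per well) for 48 h, and the solvent DMSO for 48 h. The etoposide and DMSO wells were seeded with 0.25 M cells, so HCD against DMSO also compares wells without and with solvent. Etoposide is a poison of topoisomerase II that leaves DNA breaks, Trp53 encodes p53, and E6l2 is read here as Ercc6l2, a gene of DNA end joining. No label says whether the 3 libraries of a group came from separate cultures, so p-values measure the spread between these libraries only.

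The median library held 27.4 M counts, the shallowest 22.50 M and the deepest 114.4 M. The 3 deepest were replicate 3 of clone 12, replicate 3 of clone 4 and replicate 3 of E6l2-Trp53-KO etoposide, the last at 40.9 M. In DMSO, Trp53 RNA was at 25.3 to 26.5 counts per M counts (CPM) in E6l2-Trp53-KO cells and 28.1 to 29.3 CPM in Trp53-KO cells, against 77.0 to 83.0 CPM in wildtype cells. Ercc6l2 RNA was at 26.5 to 29.2 CPM in E6l2-KO cells and 30.7 to 31.7 CPM in wildtype cells, a narrow gap that does not check the edit. All 10 GMP markers on the list used were above 1 CPM in every group except clone 6, where 7 were. The 10 mast cell markers summed to between 135276 and 180963 CPM in the clones, on a scale over all 48 libraries, against 1711 to 2290 CPM in the DMSO cells of the same genotypes, so the clones went against a plain GMP label.

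The stem-loop itself was searched for in the GENCODE M21 transcripts, since it defines these mRNAs, with the pattern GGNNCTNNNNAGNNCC on the transcript strand. A match counted only where all 6 base pairs of the stem could form, with pairs of G and T allowed. Such a match was present in 42 of the 63 members and in 396 of 25430 genes searched (1.56%). The commonest form, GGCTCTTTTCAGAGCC, stood in 24 members of the H1, H2A, H2B and H3 classes, whereas 6 of the H4 genes carried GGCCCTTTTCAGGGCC. The 7 genes below are shown because the comparisons turn on them. Capitals mark the 16 bases of the stem-loop, and 7 bases of the transcript are given on each side.
H1f2: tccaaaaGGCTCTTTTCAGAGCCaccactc
H2bc12: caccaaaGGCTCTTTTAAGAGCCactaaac
H3c15: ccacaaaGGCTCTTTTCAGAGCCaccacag
H3c7: ccaaaacGGCTCTTTTAAGAGCCacctcca
H4c8: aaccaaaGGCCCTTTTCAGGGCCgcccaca
H4c9: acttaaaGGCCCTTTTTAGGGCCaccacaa
H4c14: ccctaacGGCCCTTTTTAGGGCCaaccaca

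The annotated transcripts fell into 3 kinds, a grouping made after the values were seen. In 19 members the annotation ran more than 100 bases past the stem-loop, by 840 bases in H1f2 and 1257 in H4c14. In 23 members it ended within 100 bases of it, at 46 bases in H4c8 and 30 in H2bc12. In the other 21 no match to the pattern was found, among them H2bc21, whose transcript is 2620 bases long, and H2ac21, at 444 bases. Several of the 21 have shorter annotations, such as H4c12 at 312 bases, H2bc18 at 381 and H2ac13 at 393. An annotation that stops early would hold no stem-loop, so a missing match does not show that the gene lacks one.

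Promoters were read from RefSeq on build GRCm38.p6, as the 250 bases before and 50 after each gene's start, for 57 of the members. Both strands were searched for CCAAT, for the octamer ATTTGCAT and for TATAAA, none of which contains another. CCAAT stood in 86% of member promoters and in 37.4% of all 32851 promoters, ATTTGCAT in 21.1% and 1.74%, and TATAAA in 59.6% and 13.6%. The CCAAT share came from H1, H2A, H2B and H3, where all promoters had it, while 3 of 11 H4 promoters did. The octamer was found in 6 of 14 H2B and 6 of 17 H2A promoters and in no H1, H3 or H4 promoter. One promoter is printed because it lies between H2ac12 and H2bc12, neighbours read in opposite directions that were among the most reduced members in the clones. The sequence is chr13:22035571-22035870 on the plus strand, that of H2bc12, with the 3 motifs in capitals.
H2bc12: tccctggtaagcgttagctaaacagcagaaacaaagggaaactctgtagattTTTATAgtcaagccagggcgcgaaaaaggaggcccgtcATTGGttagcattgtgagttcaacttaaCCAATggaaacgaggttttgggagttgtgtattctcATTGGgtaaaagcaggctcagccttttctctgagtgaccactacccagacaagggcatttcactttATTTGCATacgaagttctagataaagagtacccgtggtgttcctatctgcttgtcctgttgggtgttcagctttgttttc

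In wildtype DMSO cells 54 members were at 100 CPM or more, 6 lay between 1 and 100 CPM, and H2bc1, H2ac1 and H4c17 were below 1 CPM. Per kilobase of annotated transcript the levels were highest for H4c8 at 3613 CPM per kb, H2bc12 at 3513 and H2bc18 at 3268. These values rest on short annotated lengths, 470, 476 and 381 bases. The highest counts per class over all libraries belonged to H1f3 and H1f4, H2ac19 and H2ac13, H2bc12 and H2bc18, H3c6 and H3c15, and H4c8 and H4c4. By class, the median library gave 15.4% of its histone counts to H1, 18.0% to H2A, 23.2% to H2B, 20.9% to H3 and 22.5% to H4. Copies within a class share sequence: 74.2% of all 50-base words of H2bc12 occur in another member, and 45.8% of those of H4c8, against 0% in H2bc21 and 8.50% in H1f2. Values of single copies are therefore uncertain where words are shared, and the class sums are given beside them. The annotated spans of H2bc6 and H1f4 also overlap.

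Libraries of a group differed in their histone counts. The coefficient of variation within a group had a median of 10.6% over members and 9.97% for the sum of all 63, and the sum varied by 1.05% in wildtype DMSO and by 18.9% in clone 12. H2bc23, H2bc24, H2ac23, H4c17, H2bc1 and H2ac1 differed more than 2-fold between libraries of the same group in 3 or more groups. H2bc23, H2bc24, H2ac23 and H4c17 each share more than 85% of their 50-base words with another member.

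**Figure D1:**
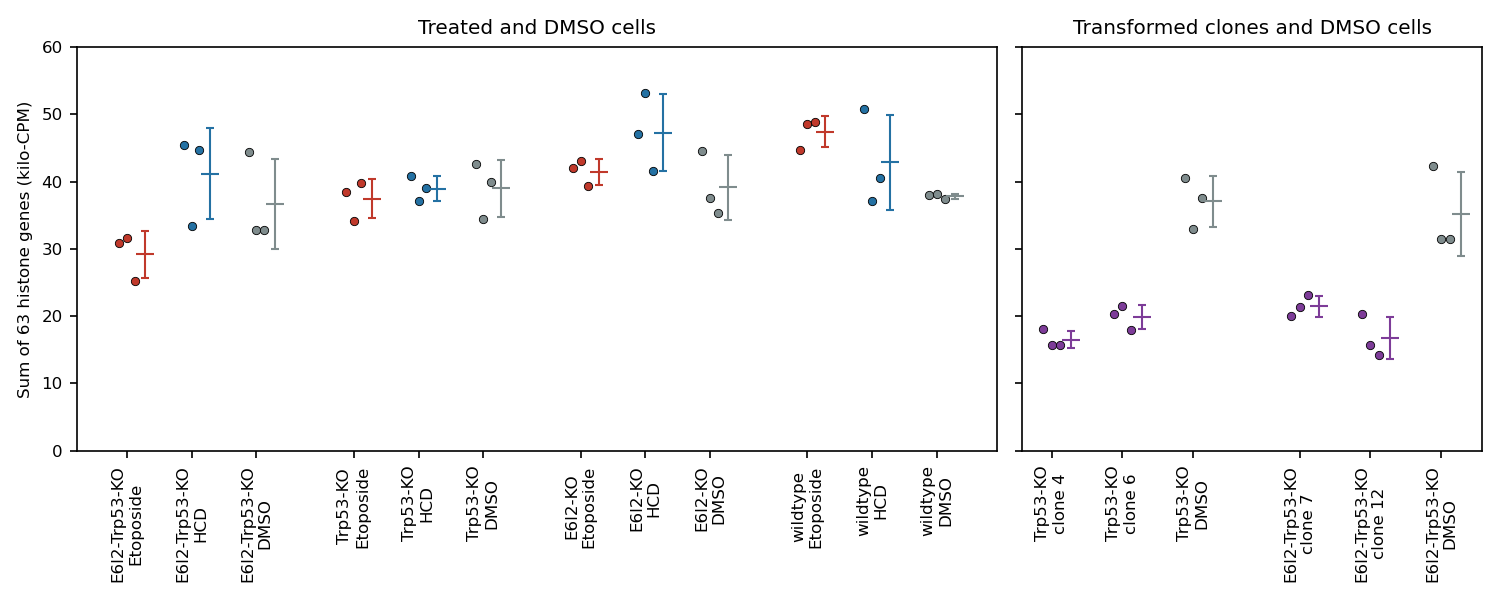
Sum of the 63 histone genes per library, on an axis in kilo-CPM. Left, E6l2-Trp53-KO, Trp53-KO, E6l2-KO and wildtype cells with etoposide, at high cell density and in DMSO; right, the transformed clones and the DMSO cells of their genotypes. Dots are libraries and bars the mean ± SD of 3. All 3 wildtype etoposide libraries (44724 to 48843 CPM) lie above wildtype DMSO (37369 to 38105 CPM), and all 12 clone libraries (14279 to 23095 CPM) lie below their DMSO cells (31521 to 42318 CPM).

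With etoposide the histone sum was lower in E6l2-Trp53-KO cells and higher in wildtype cells, a difference between these genotypes that was not tested. In E6l2-Trp53-KO cells 19 members fell and 1 rose, against 7.25% and 5.97% of all genes, but none was called without etoposide replicate 3. In Trp53-KO cells no member passed the test, nor did any gene. In E6l2-KO cells 3 rose and 1 fell, against 18.9% and 16.1% of all genes. In wildtype cells 24 rose and 1 fell, against 20.3% and 21.1%. The largest called changes outside the variable copies were mostly those of H3 and H4 genes. Rose and fell mean here that the quasi-likelihood F test of edgeR passed the threshold of 0.05 after Benjamini-Hochberg correction across the 14059 genes in the fit.

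In E6l2-Trp53-KO cells the histone sum was 30813, 31558 and 25177 CPM with etoposide, against 44336, 32762 and 32743 CPM in DMSO. The libraries did not overlap, and the means of 29183 ± 3489 and 36614 ± 6688 CPM (SD, n = 3 each) differed by a log2 ratio of -0.33. Of all genes, 5.97% were called higher and 7.25% lower in this comparison. The median member was at a log2 fold change of -0.34, against 0.01 for all genes. By class, 8 of 12 H3, 5 of 12 H4, 3 of 17 H2B, 2 of 5 H1 and 1 of 17 H2A genes fell.

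The members with the largest falls above 1 CPM were the H3 genes H3c7, H3c13, H3c2 and H3c6, by 0.62, 0.61, 0.60 and 0.58 on the log2 scale (SE 0.21, 0.17, 0.18 and 0.19). H3c7 was at 755, 790 and 288 CPM with etoposide, against 1181, 815 and 820 CPM in DMSO, and H3c6 at 809, 885 and 383 CPM, against 1323, 899 and 880 CPM. H3c7 did not overlap between conditions and H3c6 did, by its replicate 2 with etoposide, and replicate 3 with etoposide was far below the other 2 for both. H2ac23 rose by 1.17 ± 0.36 (SE), at 19.8, 25.2 and 122 CPM with etoposide, against 31.7, 25.1 and 20.2 CPM in DMSO. Only replicate 3 was above the DMSO range, and without it the fold change of H2ac23 was -0.19.

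That replicate was also the deepest of the untransformed libraries. Its H3 sum was 3435 CPM, against 6340.5 and 6598 CPM in replicates 1 and 2, and its H2A sum was 6518 CPM, against 5497 and 5840 CPM. Of the 12 H3 genes 11 were lowest in replicate 3, as were 15 of the 17 H2B genes, while 12 of the 17 H2A genes were highest there. Its H3 share of histone counts, 13.6%, was the lowest of the 48 libraries and its H2A share, 25.9%, the highest. Without it no member was called and the log2 ratio of the sums was -0.23. Leaving out replicate 1 or replicate 2 with etoposide left 31 and 33 members called, and leaving out replicate 1 in DMSO, the highest there, left 3 and a log2 ratio of the sums of -0.17. Fitted on the 2 groups alone, no member was called.

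In Trp53-KO cells no gene passed the test with etoposide (0% of 14059), and 468 genes and 2 members were at an unadjusted p under 0.05. DESeq2 called no member either. The histone sum was 38416, 34206 and 39750 CPM with etoposide and 42626, 34405 and 39971 CPM in DMSO, overlapping ranges with a log2 ratio of -0.06.

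In E6l2-KO cells 3 members rose, against 18.9% of all genes, and 1 fell, against 16.1%. H4c3 was at 511, 576 and 494 CPM with etoposide and 458, 426 and 410 CPM in DMSO, without overlap (0.29 ± 0.09 SE on the log2 scale; adjusted p = 0.0137, edgeR). The H4c3 call was lost with total counts (0.15) and with length and GC offsets (0.17). The others were the variable copies named above: H2ac23 rose by 1.07 ± 0.36, H2bc24 by 1.02 ± 0.40, and H2bc23 fell by 1.95 ± 0.63. The H2bc24 call was lost with total counts, by DESeq2 and without any 1 library except replicate 3 in DMSO. H2bc23 overlapped between conditions, at 33.0, 42.6 and 69.4 CPM with etoposide, against 266, 230 and 68.2 CPM in DMSO. The sum, at 42053, 43019 and 39305 CPM with etoposide and 44512, 37508 and 35356 CPM in DMSO, overlapped, with a log2 ratio of 0.08. Without replicate 2 with etoposide no member was called, without replicate 1 with etoposide or replicate 2 in DMSO 1 was, and without replicate 3 in DMSO 2 were.

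In wildtype cells the histone sum was 44724, 48586 and 48843 CPM with etoposide, against 37986, 38105 and 37369 CPM in DMSO. The means, 47384 ± 2307 and 37820 ± 395 CPM (SD, n = 3 each), differed by 25.3%, a log2 ratio of 0.33. Of all genes, 20.3% were called higher and 21.1% lower, and the median log2 fold change was 0.33 over the members and -0.00 over all genes. The libraries of 54 members did not overlap and were higher with etoposide. The share of all genes without overlap is not given here, and copies share reads, so this count carries no weight of its own. The 24 that rose were 9 H2A, 7 H4, 4 H2B and 4 H3 genes, and none of the 5 H1 genes passed the test.

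H3c15 (chr3:96238108-96239127) and H4c8 (chr13:23531050-23531519), whose stem-loops are printed above, were the wildtype members with the largest rises. H3c15 was at 1122, 1336 and 1276 CPM with etoposide, against 833, 882 and 848 CPM in DMSO (log2 fold change 0.54 ± 0.13 SE; adjusted p = 0.00128, edgeR). H4c8 was at 2284, 2401 and 2436 CPM, against 1647, 1691 and 1756 CPM (0.48 ± 0.13; adjusted p = 0.0026, edgeR). Every etoposide library of both genes was above every DMSO library. H4c4 rose by 0.47 ± 0.12, at 2198 to 2300 CPM against 1623 to 1633 CPM, and H3c2 by 0.46 ± 0.18. The H3c2 call was lost with total counts (0.27), with length and GC offsets (0.20) and without any 1 library except replicate 1 with etoposide. H3c14 alone fell, by 0.53 ± 0.14, at 8.27, 8.61 and 7.40 CPM with etoposide against 10.8, 10.5 and 13.4 CPM in DMSO, and all its 50-base words occur in other genes.

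The wildtype values moved with length and GC offsets and with the scaling. With the offsets the members' median was 0.11, against 0.33 in the main fit, and 8 members rose and 1 fell. With total counts the median of all genes was -0.19 and that of the members 0.15, and 5 members rose, with 930 genes higher and 6209 lower. With factors over all 48 libraries 37 members rose, with 4012 genes higher and 2445 lower, against 2860 and 2970 with TMM factors. The members' median lay 0.34 above that of all genes under each of the 3 scalings. A change of factors shifts all genes alike, so this gap cannot test the scaling. Leaving out a library left 14 to 23 members called, with 16, 15 and 15 without replicate 1, 2 or 3 in DMSO and 16 and 14 without replicate 2 or 3 with etoposide.

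The response to etoposide was also compared between genotypes by interaction terms. Against wildtype, the response of Trp53-KO cells was lower for 9 members and higher for none, where 11.1% of all genes were lower and 12.1% higher. The 9 were 14.3% of the members, a share near that of all genes. The largest differences were in H3c15 (-0.68 ± 0.19 SE; adjusted p = 0.00889), H4c8 (-0.57 ± 0.18; adjusted p = 0.0202) and H4c4 (-0.54 ± 0.17; adjusted p = 0.0238), all by edgeR. H3c15 was at 917, 818 and 866 CPM in Trp53-KO cells with etoposide and 1039, 800 and 1019 CPM in Trp53-KO DMSO, ranges that overlapped, unlike those in wildtype. The other 6 were H2ac20, H4c12, H2ac6, H2ac21, H4c2 and H4c3, between -0.47 and -0.39, named after their values were seen. With total counts H4c8 (-0.39) and H4c4 (-0.36) were not called, and both calls were also lost without Trp53-KO DMSO replicate 1 or Trp53-KO etoposide replicate 2, that of H4c4 also without Trp53-KO DMSO replicate 3. With total counts 2 members were called, 1 in each direction, and with factors over all 48 libraries 18 were, all lower. With length and GC offsets 5 were called, all lower, and the members' median was -0.17, against -0.40 in the main fit. Without wildtype DMSO replicate 2 or 3, 5 were called, without wildtype etoposide replicate 3, 3, without Trp53-KO DMSO replicate 1 or 3, 2, without Trp53-KO DMSO replicate 2, 15, and without Trp53-KO etoposide replicate 2, 1.

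No member differed in its etoposide response between E6l2-KO and wildtype, where 0.00711% of genes were higher and 0.00711% lower, or between E6l2-Trp53-KO and Trp53-KO, where 0.0925% were higher and 0.114% lower. At an unadjusted p under 0.05 there were 3 and 11 members in these interactions, and DESeq2 called 0 in both. So the 19 falls in E6l2-Trp53-KO cells were not shown to differ from the response of Trp53-KO cells.

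**Figure D2:**
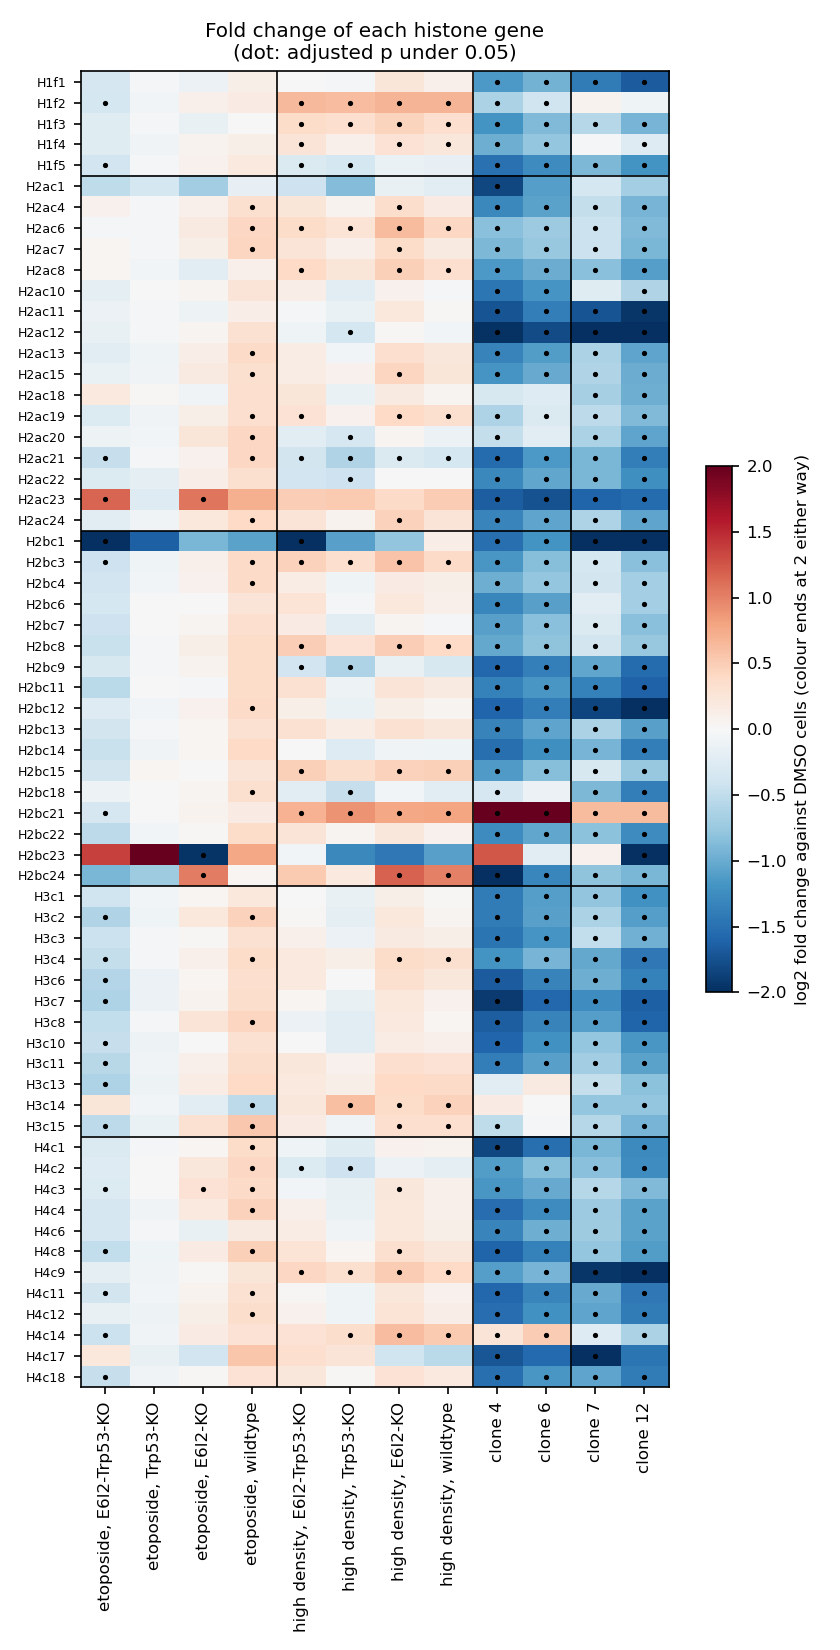
Log2 fold changes of the 63 histone genes (rows, by class) in 12 comparisons (columns), with colour from -2 to 2 and a dot where the adjusted p was under 0.05. Wildtype etoposide carries 25 dots, Trp53-KO etoposide none, and the clone columns between 54 and 60, nearly all on the lower side.

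The genes that make, process and carry histone mRNA and protein were counted by list under etoposide. Slbp, which binds the stem-loop, Npat, the coactivator of histone gene transcription, and Casp8ap2, a scaffold of 3' end processing, passed the test in none of the 4 genotypes (log2 fold changes between -0.14 and 0.07). Of 23 genes of histone transcription and mRNA processing, 0 rose and 3 fell in E6l2-Trp53-KO cells, 3 rose and 5 fell in E6l2-KO cells, and 3 rose and 5 fell in wildtype cells. In wildtype Lsm10, a component of the U7 particle that cleaves histone mRNA, rose by 0.41 ± 0.07, at 30.1 CPM with etoposide and 22.6 CPM in DMSO. Of 11 tested variant and replication-independent histones, 4 fell in E6l2-Trp53-KO cells, 6 rose and 1 fell in E6l2-KO cells, and 7 rose in wildtype cells. H2ax, whose protein is phosphorylated at DNA breaks, rose by 0.41 ± 0.09 in wildtype, at 554 CPM with etoposide and 417 CPM in DMSO. H2aj, an H2A variant, rose by 0.77 ± 0.10, at 221 and 130 CPM. Of 25 S phase genes 4 fell in E6l2-Trp53-KO cells, 5 fell in E6l2-KO cells, and 3 rose and 3 fell in wildtype, where their sum was 4550 to 4603 CPM with etoposide and 4408 to 4469 CPM in DMSO.

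High cell density moved single histone genes while the sums overlapped. H2bc21, H1f2, H1f3, H2bc3, H4c9 and H2ac6 rose in all 4 genotypes and H2ac21 fell in all 4. In E6l2-Trp53-KO cells 11 members rose and 5 fell, against 25.5% and 20.7% of all genes, and in Trp53-KO cells 8 rose and 8 fell, against 23.9% and 20.9%. In E6l2-KO cells 22 rose and 1 fell, against 22.3% and 18.4%, and in wildtype 16 rose and 1 fell, against 24.9% and 23.6%. The shares of members that rose ran from below to somewhat above the share of all genes.

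The sum was 45421, 33428 and 44694 CPM at high density in E6l2-Trp53-KO cells, against 44336, 32762 and 32743 CPM in DMSO. In Trp53-KO cells it was 40764, 37136 and 39013 CPM, against 42626, 34405 and 39971 CPM. In E6l2-KO cells it was 47070, 53143 and 41636 CPM, against 44512, 37508 and 35356 CPM, and in wildtype 50772, 37174 and 40573 CPM, against 37986, 38105 and 37369 CPM. All 4 pairs overlapped, with log2 ratios of 0.17, -0.00, 0.27 and 0.18. The H1 class was the one whose libraries did not overlap in E6l2-KO cells, at 7102 ± 385 CPM against 5632 ± 584 CPM, and in wildtype, at 6782 ± 867 CPM against 5656 ± 182 CPM (SD, n = 3 each). In wildtype the nearest libraries differed by a log2 ratio of only 0.0086. The class did not move as one, since 3 of its 5 genes rose in each of these genotypes. H1f5 had a lower mean, 870 against 951 CPM in E6l2-KO and 849 against 949 CPM in wildtype, and was called in neither.

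H2bc21 (chr3:96221119-96223738) encodes an H2B protein and shares none of its 50-base words with another gene. At high density it was at 34.2, 25.2 and 26.4 CPM in E6l2-Trp53-KO cells, against 16.3, 18.5 and 18.1 CPM in DMSO (log2 fold change 0.70 ± 0.09 SE). In Trp53-KO cells it was at 20.6, 19.5 and 17.5 CPM, against 10.5, 10.4 and 9.99 CPM (0.89 ± 0.10). In E6l2-KO cells it was at 17.7, 15.3 and 15.2 CPM, against 9.61, 9.32 and 9.13 CPM (0.78 ± 0.10), and in wildtype at 19.97, 15.3 and 16.7 CPM, against 9.497, 9.91 and 10.7 CPM (0.79 ± 0.10). High density was above DMSO in every library of every genotype, with adjusted p between 5.59e-09 and 1.71e-07 by edgeR.

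H1f2 (chr13:23738808-23740367), a linker histone, was at 1427, 1185 and 1517 CPM at high density in E6l2-Trp53-KO cells, against 984, 829 and 818 CPM in DMSO. In Trp53-KO cells it was at 1474, 1387 and 1517 CPM, against 1029, 854 and 971 CPM. In E6l2-KO cells it was at 1487, 1493 and 1396 CPM, against 1009, 888 and 836 CPM, and in wildtype at 1561, 1255 and 1480 CPM, against 911, 885 and 880 CPM. The log2 fold changes were 0.65, 0.62, 0.68 and 0.68 (SE 0.09 each), and no genotype's libraries overlapped.

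H2ac21 (chr3:96219865-96220308), an H2A gene a short distance from H2bc21, went the other way. It was at 33.2, 29.2 and 34.8 CPM in E6l2-Trp53-KO cells, against 47.3, 39.1 and 39.5 CPM, a fall of 0.37 ± 0.11 (SE). It was at 29.8, 27.8 and 31.9 CPM in Trp53-KO cells, against 47.5, 37.5 and 50.4 CPM, a fall of 0.60 ± 0.12. In E6l2-KO cells it fell by 0.29 ± 0.11, at 34.5, 40.7 and 38.0 CPM against 50.7, 42.7 and 44.6 CPM, and in wildtype by 0.35 ± 0.11, at 39.6, 31.9 and 36.6 CPM against 47.0, 46.7 and 44.2 CPM. The libraries overlapped in none of the 4 genotypes. The adjusted p of H2ac21 (edgeR) passed 0.05 in single left-out fits of E6l2-Trp53-KO cells (without replicate 2 at high density or replicate 1 in DMSO), of E6l2-KO cells (without replicate 1 or 3 of either condition) and of wildtype (without replicate 2 at high density).

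**Figure D3:**
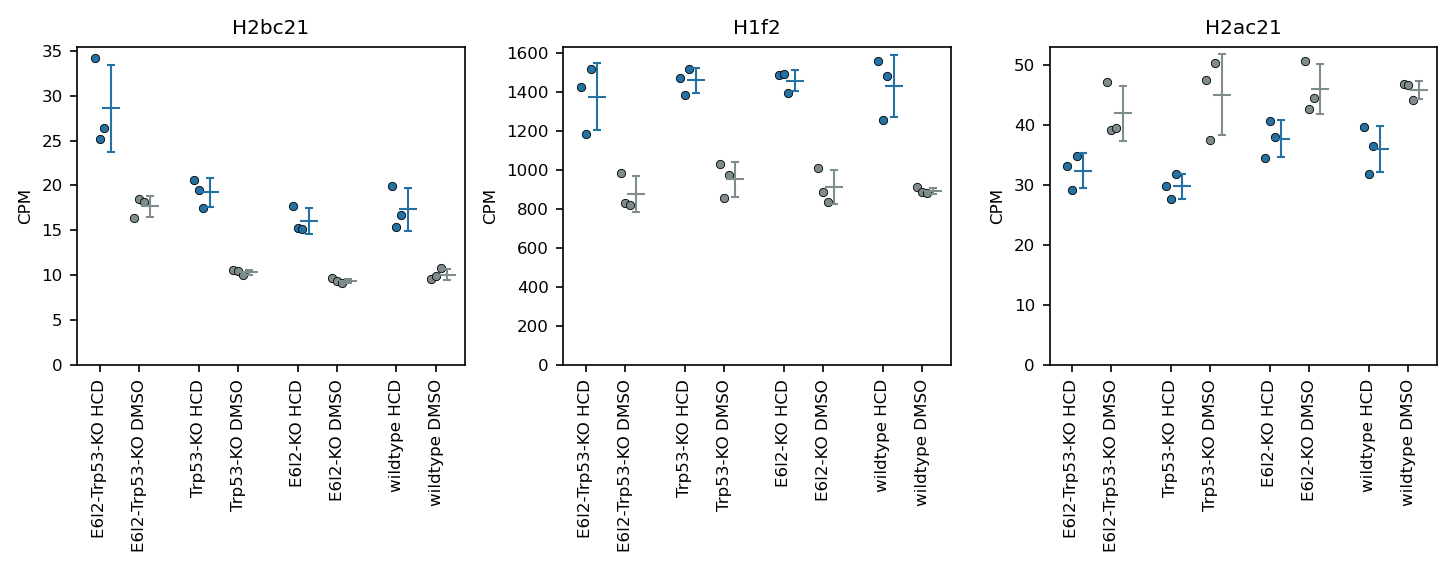
CPM per library of H2bc21, H1f2 and H2ac21 at high cell density and in DMSO, by genotype; dots are libraries and bars the mean ± SD of 3. H2bc21 and H1f2 are higher at high density in every library of each genotype, and H2ac21 is lower.

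The other members that rose in all 4 genotypes, picked after their values were seen, had smaller changes. H1f3 rose by 0.37, 0.33, 0.44 and 0.34 in E6l2-Trp53-KO, Trp53-KO, E6l2-KO and wildtype cells (SE 0.10 each), H2bc3 by 0.46, 0.33, 0.57 and 0.39, H4c9 by 0.41, 0.32, 0.51 and 0.40, and H2ac6 by 0.37, 0.28, 0.64 and 0.42 in the same order. The libraries of these 4 genes overlapped in E6l2-Trp53-KO cells and in no other genotype. H4c14 rose by 0.62 ± 0.14 in E6l2-KO cells and 0.52 ± 0.14 in wildtype cells. Its rise of 0.35 ± 0.14 in Trp53-KO cells was lost with total counts, by DESeq2 and without any 1 library of the comparison except replicate 1 in DMSO. H2bc24 rose by 1.17 ± 0.40 in E6l2-KO cells and 1.01 ± 0.40 in wildtype, where its DMSO libraries spanned 90.3 to 282 CPM. The H2bc24 call was lost in E6l2-KO cells without replicate 2 at high density or replicate 1 or 2 in DMSO, and in wildtype with total counts, by DESeq2 and without replicate 1 or 2 at high density or 2 or 3 in DMSO. Besides H2ac21, the named falls were H2bc9, H1f5 and H4c2 in E6l2-Trp53-KO cells (by 0.39, 0.28 and 0.27) and H2bc9, H2bc18 and H2ac22 in Trp53-KO cells (by 0.61, 0.46 and 0.42). In E6l2-Trp53-KO cells the 3 calls were lost without replicate 2 at high density or replicate 1 in DMSO. There H2bc9 was also lost by DESeq2, on the compared groups alone and without replicate 3 at high density, and H4c2 on the compared groups alone. H2ac22 was lost by DESeq2 and without any 1 library except replicate 2 in DMSO. H3c14 rose by 0.61 ± 0.13 in Trp53-KO, 0.37 ± 0.14 in E6l2-KO and 0.46 ± 0.13 in wildtype cells, and H2bc8 and H2bc15 by 0.49 and 0.47 in E6l2-Trp53-KO cells. Both of these calls were lost without replicate 3 at high density or replicate 2 or 3 in DMSO, and that of H2bc8 also without replicate 1 at high density.

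Rises at high density were also counted by annotated end. Of all genes, 25.5% rose in E6l2-Trp53-KO, 23.9% in Trp53-KO, 22.3% in E6l2-KO and 24.9% in wildtype cells. Of the 19 whose transcript ran more than 100 bases past the stem-loop, 7 rose in E6l2-Trp53-KO, 6 in Trp53-KO, 12 in E6l2-KO and 11 in wildtype cells. Of the 23 that ended within 100 bases, 2, 1, 6 and 2 rose in the same genotypes, and of the 21 with no match 2, 1, 4 and 3 rose. The median log2 fold changes of the first kind were 0.22, 0.10, 0.33 and 0.32, and those of the second 0.23, -0.10, 0.21 and 0.09. In E6l2-Trp53-KO cells the medians of these kinds were thus nearly equal. The grouping was made on these data and carries no test, and transcript length differs between the kinds.

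**Figure D4:**
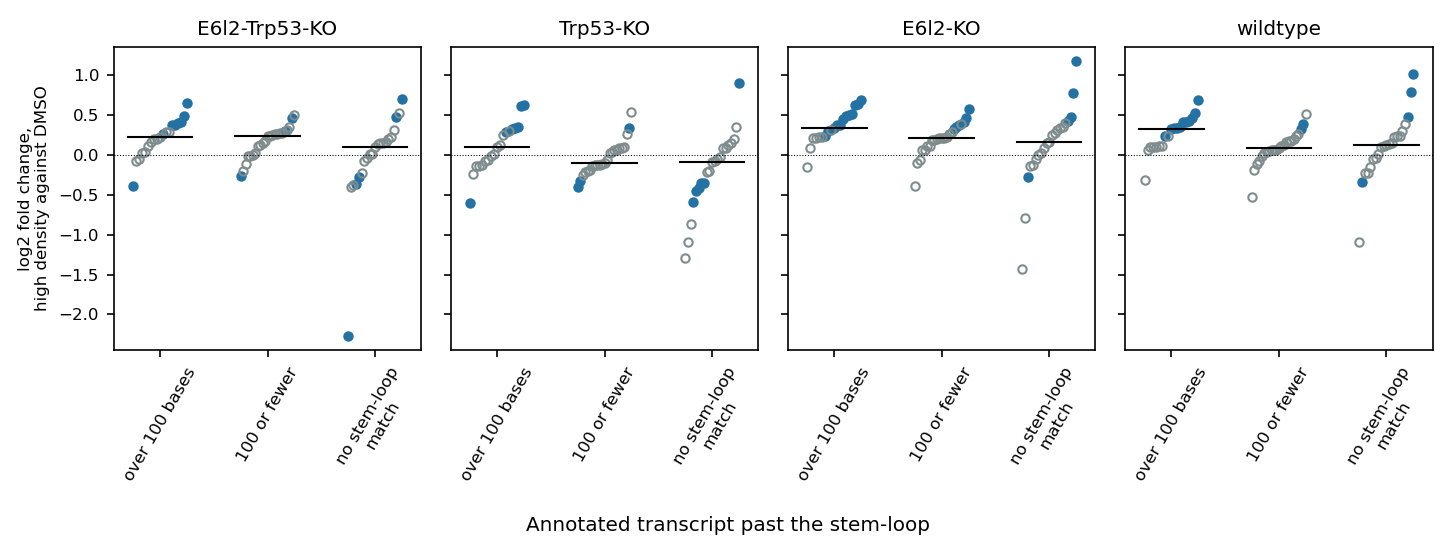
Log2 fold change at high cell density over DMSO of each histone gene, by genotype and by where its annotated transcript ends relative to the stem-loop. Filled points passed the test and lines are medians. In wildtype 11 of 19 genes with the longer annotated ends rose and 2 of 23 with ends within 100 bases did, against 24.9% of all genes. In E6l2-Trp53-KO cells the medians of these kinds were nearly equal.

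Scaling and single libraries moved these counts. With total counts the median of all genes was -0.15 in both E6l2-KO and wildtype cells and -0.10 in E6l2-Trp53-KO cells, and in wildtype 5 members rose and 6 fell, with 2078 genes higher and 5696 lower against 3504 and 3317 with TMM factors. Left-out libraries that moved a count by more than 1.5 times were replicate 3 at high density and replicates 2 and 3 in DMSO of E6l2-Trp53-KO cells (10 members each), and replicates 1 and 2 at high density (10 each) and replicate 3 in DMSO (9) of Trp53-KO cells. In E6l2-KO cells they were replicate 2 at high density (12) and replicates 2 and 3 in DMSO (14 and 11), and in wildtype replicate 1 at high density (8) and replicates 2 and 3 in DMSO (10 each). The interaction of density with genotype gave 0 members for E6l2-KO against wildtype, where 0.00711% of genes were higher and 0% lower, and 0 for Trp53-KO against wildtype, where 0.0569% were higher and 0.0356% lower. At an unadjusted p under 0.05 these held 0 members and 1 member, and DESeq2 called 0 in both.

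At high density more of the S phase, processing and chaperone genes fell than rose in each genotype, while 18.4% to 23.6% of all genes fell. Of 25 S phase genes, 16 fell in E6l2-Trp53-KO, 19 in Trp53-KO, 13 in E6l2-KO and 11 in wildtype cells, and 1, 1, 2 and 4 rose. Of the 23 transcription and processing genes 11, 13, 8 and 11 fell and 4, 3, 3 and 3 rose. Tyms, which makes thymidylate, fell by 0.78, 0.69, 0.44 and 0.49, and the flap nuclease gene Fen1 by 0.64, 0.70, 0.49 and 0.49 in the same order. Slbp fell by 0.31, 0.32, 0.22 and 0.18, Casp8ap2 by 0.32, 0.31, 0.20 and 0.30, and Npat was called in none. Ccne1, encoding cyclin E1, which acts with CDK2 on Npat, fell by 0.87, 1.18, 0.76 and 0.78. Of 10 histone chaperones 8, 7, 7 and 6 fell and 1, 0, 0 and 1 rose, with Nasp, a carrier of H3 and H4, down by 0.43, 0.40, 0.29 and 0.22. The replication-independent linker histone H1f0 rose by 1.05, 0.94, 1.14 and 1.27 (SE 0.08 each), to 145 CPM against 69.9 CPM in E6l2-Trp53-KO and to 96.7 CPM against 40.1 CPM in wildtype. Their part in the histone values was not tested.

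In DMSO few members passed the test between genotypes. E6l2-KO cells differed from wildtype in no member by edgeR, where 1.56% of all genes were higher and 2.49% lower, with 0 members at an unadjusted p under 0.05 and 0 called by DESeq2. The histone sums had a log2 ratio of 0.05. Trp53-KO cells were lower than wildtype for H2bc23 alone, where 3.54% of all genes were higher and 5.49% lower. It was at 72.5, 19.2 and 11.4 CPM in Trp53-KO DMSO, against 45.6, 223 and 232 CPM in wildtype DMSO, an overlapping spread (-2.25 ± 0.64 SE on the log2 scale; adjusted p = 0.0211, edgeR). The call was lost without replicate 2 or 3 of either group. E6l2-Trp53-KO cells were higher than Trp53-KO cells for H2bc21 alone, where 8.14% of all genes were higher and 6.79% lower. H2bc21 was at 16.3, 18.5 and 18.1 CPM against 10.5, 10.4 and 9.99 CPM, without overlap (0.77 ± 0.10 SE on the log2 scale; adjusted p = 2.76e-07, edgeR). Without replicate 1 of E6l2-Trp53-KO DMSO 2 members were called.

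All 4 transformed clones had lower histone counts, as CPM, than the DMSO cells of their genotype, in every class. The sum was 18039, 15770 and 15758 CPM in clone 4 and 20334, 21457 and 17883 CPM in clone 6, while Trp53-KO DMSO had 40589, 33019 and 37582 CPM. It was 19979, 21411 and 23095 CPM in clone 7 and 20323, 15682 and 14279 CPM in clone 12, while E6l2-Trp53-KO DMSO had 42318, 31523 and 31521 CPM. No clone library reached a DMSO library, and the log2 ratios of the means were -1.17, -0.90, -0.71 and -1.07 for clones 4, 6, 7 and 12. In bulk RNA, fewer cells in S phase and less histone RNA per cell cannot be told apart. The share of polyadenylated histone transcripts, which this kit enriches, was not tested in the clones either. Clone and genotype cannot be told apart either, since each clone is 1 line.

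In clone 4, 57 members fell and 2 rose, against 38.7% and 41.7% of all 14403 genes tested, and in clone 6, 52 fell and 2 rose, against 38.9% and 38.5%. In clone 7, 56 fell and 1 rose, against 38.9% and 40.6%, and in clone 12, 59 fell and 1 rose, against 39.3% and 40.4%. The median log2 fold changes of the members were -1.32, -1.05, -0.73 and -1.09. Clones 4 and 6 share their DMSO libraries, as do clones 7 and 12. Leaving out replicate 3 of clone 4 or of clone 12, the deepest libraries, left 57 and 58 members called.

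The H2A gene H2ac12 was among the 4 largest falls in each clone. It was at 130, 116 and 123 CPM in clone 4 and 143, 154 and 121 CPM in clone 6, while Trp53-KO DMSO had 529, 416 and 506 CPM (log2 fold changes -1.97 and -1.80, SE 0.15 each). It was at 83.1, 85.0 and 94.4 CPM in clone 7 and 112, 80.6 and 68.5 CPM in clone 12, while E6l2-Trp53-KO DMSO had 585, 414 and 390 CPM (-2.40 and -2.42, SE 0.15 each). The clone libraries stayed far below those of DMSO. H2ac12 shares 90.7% of its 50-base words with other members.

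Its neighbour H2bc12, whose promoter is printed above, was at 366, 399 and 422 CPM in clone 7 and 425, 321 and 290 CPM in clone 12, while E6l2-Trp53-KO DMSO had 1710, 1258 and 1273 CPM (-1.84 and -2.03, SE 0.13 each). H4c9 was at 123, 133 and 142 CPM in clone 7 and 145, 115 and 94.7 CPM in clone 12, while E6l2-Trp53-KO DMSO had 616, 456 and 457 CPM (-1.94 and -2.12, SE 0.13 each). H2ac11 was at -1.73 ± 0.11 in clone 7. These 4 and H2bc11 form a cluster at chr13:22035164-22043676. Its median log2 fold change was -1.58, -1.38, -1.84 and -2.03 in clones 4, 6, 7 and 12, while the 23 other genes tested within 1 Mb had medians of 0.10, -0.10, 0.28 and 0.12.

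In the Trp53-KO clones the falls were also led by H3c7 (-1.92 in clone 4 and -1.56 in clone 6, SE 0.15 each) and H4c1 (-1.82 ± 0.12 and -1.51 ± 0.11). H3c7 was at 276, 246 and 236 CPM in clone 4 and 336, 348 and 284 CPM in clone 6, while Trp53-KO DMSO had 1074, 821 and 965 CPM, with no overlap. H2bc24 fell by 2.49 ± 0.21 in clone 4, at 47.5 to 63.4 CPM against 271 to 351 CPM in DMSO. H2ac23 fell by 1.74 ± 0.30 in clone 6 and H2bc23 by 2.34 ± 0.79 in clone 12, both copies that varied widely within groups, and H2bc23 was not called without replicate 3 of clone 12.

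**Figure D5:**
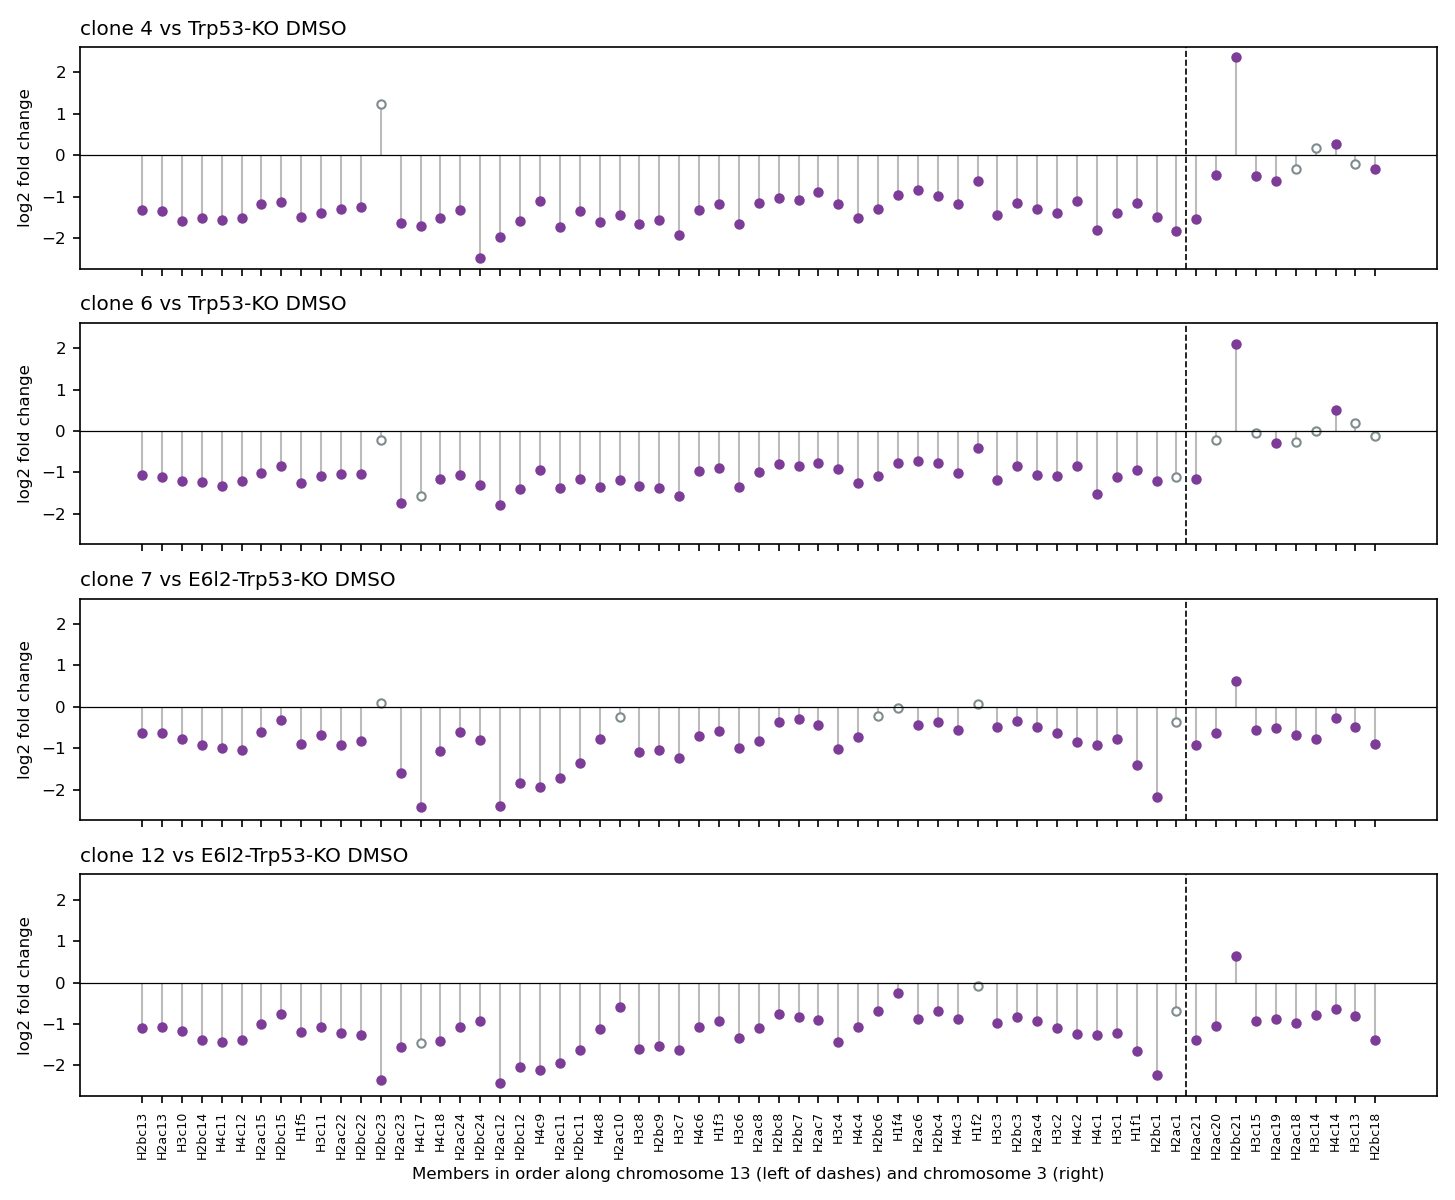
Log2 fold change of each histone gene in the 4 transformed clones over the DMSO cells of their genotype, in order along chromosome 13 and then chromosome 3; filled points passed the test. Nearly all points lie below 0, H2bc21 on chromosome 3 lies above 0 in each clone, and among the chromosome 3 genes of clone 6 H2ac21, H2bc21 and H4c14 lie farthest from 0.

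By class sum, H1 was the least reduced class in clones 7 and 12. Its log2 ratios were -1.07, -0.83, -0.47 and -0.72 in clones 4, 6, 7 and 12, beside -1.38, -1.11, -0.86 and -1.20 for H4, the most reduced class in each clone. H1f4, a highly expressed linker histone gene, fell by 0.97 ± 0.10 in clone 4, 0.78 ± 0.10 in clone 6 and 0.26 ± 0.10 in clone 12, and was at -0.04 ± 0.10 (SE), not past the test, in clone 7. H1f2 fell by 0.63 ± 0.08 in clone 4 and 0.40 ± 0.08 in clone 6, and was at 0.07 ± 0.08 in clone 7 and -0.08 ± 0.08 in clone 12, where its libraries overlapped those of DMSO. The clones were not tested against each other.

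The chromosome 3 genes as a sum were less reduced in the Trp53-KO clones than the chromosome 13 genes, a difference that was not tested. Their sum was 3978 ± 260 CPM in clone 4 and 4919 ± 510 CPM in clone 6, while Trp53-KO DMSO had 5214 ± 564 CPM (SD, n = 3 each), log2 ratios of -0.39 and -0.08, and clone 6 overlapped DMSO. The chromosome 13 sum was 12544 ± 1057 and 14973 ± 1320 CPM, against 31850 ± 3253 CPM, log2 ratios of -1.34 and -1.09. Of the 10 genes on chromosome 3, 5 fell in clone 4, 2 in clone 6, 9 in clone 7 and 9 in clone 12. In clones 7 and 12 both chromosomes were close, with log2 ratios of -0.60 and -0.98 on chromosome 3 and -0.73 and -1.08 on chromosome 13. The other 526 tested genes of chromosome 13 had medians of -0.74, -0.82, 0.12 and 0.06 in clones 4, 6, 7 and 12, and the other 729 of chromosome 3 medians of 0.19, 0.06, 0.15 and 0.15. Nearer to the histone genes, other genes within 1 Mb of the 3 chromosome 13 clusters had medians of 0.25, 0.10 and 0.43 in clone 4. In clone 6 these medians were -0.10, -0.10 and -0.21. The part of the whole chromosome in the histone values was not tested.

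In the clones H2bc21 went against most members. It was at 49.7, 49.3 and 53.0 CPM in clone 4 and 44.2, 38.6 and 44.6 CPM in clone 6, while Trp53-KO DMSO had 10.02, 10.02 and 9.39 CPM (2.37 and 2.11, SE 0.06 each). It was at 26.8, 26.4 and 25.8 CPM in clone 7 and 26.8, 26.4 and 26.2 CPM in clone 12, while E6l2-Trp53-KO DMSO had 15.6, 17.8 and 17.5 CPM (0.63 and 0.64, SE 0.06 each). Every clone library was above its DMSO libraries. H4c14, also on chromosome 3, rose in clone 4 (0.26 ± 0.11) and clone 6 (0.51 ± 0.11), at 258 to 309 and 293 to 379 CPM against 210 to 252 CPM in DMSO, and the call in clone 4 was lost with total counts (0.14), with other size factors, by DESeq2 and without clone 4 replicate 1 or Trp53-KO DMSO replicate 2 or 3.

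The clones also held less RNA of most genes around histone supply. The 25 S phase genes summed to 1800 to 1850 CPM in clone 4, 2130 to 2214 in clone 6, 1877 to 1896 in clone 7 and 1665 to 1706 in clone 12, against 4540 to 4709 CPM in Trp53-KO DMSO and 4288 to 4369 CPM in E6l2-Trp53-KO DMSO. Of these genes 24, 22, 22 and 24 fell in clones 4, 6, 7 and 12, with Mcm7 of the replicative helicase at -2.04, -1.84, -1.95 and -2.16, and 1 rose in each, E2f2. Npat fell by 0.82, 0.80, 0.44 and 0.53, Casp8ap2 by 0.74, 0.65, 0.58 and 0.70, and Slbp by 0.27, 0.15, 0.23 and 0.21. The chaperone gene Nasp fell by 1.68, 1.52, 1.71 and 1.73. Of the variant histones, H1f0 rose by 3.09, 2.96, 1.53 and 1.64, to 390, 357, 193 and 209 CPM against 46.0 CPM in Trp53-KO DMSO and 67.1 CPM in E6l2-Trp53-KO DMSO. Macroh2a1, which encodes the large H2A variant macroH2A1, fell by 3.06, 2.92, 1.96 and 1.94, and H2ax by 1.18, 0.98, 1.04 and 1.27. With the mast cell markers given at the outset these moved together with the histone genes, and their part in the histone values was not tested.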

How the data were processed

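RNA of sorted cells was extracted with PicoPure and sequenced by Illumina after TruSeq V2 preparation, per the labels' protocols. The authors deposited expected counts per gene (58.1% of values within 0.01 of a whole number), per the deposited values. Aligner, genome build and strand setting: not given in the sources used here. Counts were rounded and fitted with edgeR 4.0.16 (R 4.3.3): TMM factors, filterByExpr, quasi-likelihood F test and Benjamini-Hochberg correction. One fit held the 36 untransformed libraries (14059 genes, 24 residual degrees of freedom), another the 12 clone libraries with 6 DMSO libraries (14403 genes, 12 residual degrees of freedom). CPM are on each fit's own scale, and marker and S phase sums on one over all 48. DESeq2 1.42.0, other factors, no filter, length and GC offsets, a replicate block, fits on the compared groups alone and left-out libraries were alternatives. The fit was tested on simulated counts.

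The sums carry no test. Chi-square tests between libraries of a group gave 2.30 or more per degree of freedom, so none was counted as a duplicate. The largest values belonged to replicate 3 of clone 12 (67.5 and 56.8) and replicate 3 of E6l2-Trp53-KO etoposide (42.4 and 44.0), against replicates 1 and 2. These 2 libraries and replicate 3 of clone 4, the 3 deepest, also stand first among the deposited columns, apart from their groups. Named members were the 2 with the highest mean per class, the 4 called with the largest change in each direction per comparison (3 per interaction) at 1 CPM or more, and up to 3 called genes per list with Slbp, Npat, Casp8ap2, H2ax, H1f0 and H2aj. The members and lists were chosen with earlier results of these data known. A list of RNAs without a poly(A) tail had no row and was not analysed here.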

Additional observations from a re-analysis of the deposited data

Results flagged for a closer look

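By the interaction test of edgeR the etoposide response of 9 histone genes was lower in Trp53-KO than in wildtype cells, and of none higher. These were 14.3% of the members, near the 11.1% of all genes that were lower. The count ran from 1 to 15 with 1 library left out, and with total counts it was 2, 1 in each direction. The largest differences on the log2 scale were -0.68 for H3c15, -0.57 for H4c8 and -0.54 for H4c4. With etoposide the sum of all 63 genes was lower than DMSO in every E6l2-Trp53-KO library (log2 ratio -0.33) and higher than DMSO in every wildtype library (0.33), and this difference between the genotypes was not tested. In E6l2-Trp53-KO cells the nearest libraries differed by a log2 ratio of only -0.05, and without DMSO replicate 1 the ratio was -0.17. In wildtype cells the ratio was 0.14 with total counts.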

How the results depend on the processing

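Factors over all 48 libraries, and total counts for the number of members called, were chosen after seeing the data. With total counts the log2 ratio was -0.057 for E6l2-KO etoposide, 0.14 for wildtype etoposide (0.38 with factors over all 48 libraries), -1.07 for clone 6 and -0.96 for clone 7. With factors over all 48 libraries 7 members were called for E6l2-KO etoposide, 38 for wildtype etoposide and 18 for the Trp53-KO etoposide interaction. With total counts 6 were called for wildtype etoposide, 11 for wildtype high density and 2 for that interaction. Without a filter 44, 1, 7 and 49 were called for etoposide in E6l2-Trp53-KO, Trp53-KO, E6l2-KO and wildtype, 28 for high density in both E6l2-Trp53-KO and wildtype, 2 for Trp53-KO against wildtype in DMSO, and 39, 1 and 2 for the etoposide interactions of Trp53-KO, E6l2-KO and E6l2-Trp53-KO. With length and GC offsets 36 and 9 were called for etoposide in E6l2-Trp53-KO and wildtype, 26 for Trp53-KO high density, 6 for E6l2-Trp53-KO against Trp53-KO and 5 for the Trp53-KO interaction. On the compared groups alone 0, 13 and 55 were called for etoposide in E6l2-Trp53-KO, E6l2-KO and wildtype, 29 and 27 for high density in Trp53-KO and wildtype, 2 for Trp53-KO against wildtype in DMSO, and 48 and 13 for the Trp53-KO and E6l2-KO interactions. The cause was not tested.

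Replicate numbers did not pair the samples (correlations of deviations from -0.23 to 0.25). With the replicate block 14 members were called in the Trp53-KO etoposide interaction, against 9 without, and the other counts moved by less than 1.5 times.

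With 1 library left out, 0 to 33, 0 to 5 and 14 to 23 members were called for etoposide in E6l2-Trp53-KO, E6l2-KO and wildtype, and 10 to 22, 9 to 14, 11 to 25 and 8 to 18 for high density in E6l2-Trp53-KO, Trp53-KO, E6l2-KO and wildtype. The range was 0 to 2 for Trp53-KO against wildtype, 1 to 2 for E6l2-Trp53-KO against Trp53-KO, and 1 to 15 and 0 to 1 for the interactions of Trp53-KO and E6l2-Trp53-KO. In the clones it was 57 to 59, 52 to 54, 50 to 59 and 58 to 62 for clones 4, 6, 7 and 12. H2ac23 in E6l2-Trp53-KO etoposide ranged from -0.19, without etoposide replicate 3, to 1.56.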

Other observations

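Genes next to the histone clusters did not share the rise of wildtype cells with etoposide. The other genes tested within 1 Mb of the 3 chromosome 13 clusters (23, 24 and 22 genes) had median log2 fold changes of -0.45, -0.73 and -0.65, while the histone genes of the clusters had medians of 0.34, 0.31 and 0.34. The regions around these clusters overlap, so the same genes can recur in them. Near the chromosome 3 cluster 52 other genes had a median of 0.02, and its 10 histone genes one of 0.34. The other 525 tested genes of chromosome 13 had a median of -0.04. All of these are descriptions with no test and come from the fit without length and GC offsets. Those offsets took the median over all members from 0.33 to 0.11. The linker histone gene H1f10 rose at high density by 1.23, 0.95, 1.02 and 1.30 in E6l2-Trp53-KO, Trp53-KO, E6l2-KO and wildtype cells, and with etoposide fell by 0.46 in E6l2-Trp53-KO cells and rose by 0.67 in wildtype cells.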
